A study of Mus musculus with 6 samples.

Results

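The genes described here are those of MHC class I and class II antigen presentation in the mouse heart. Of 10 genes listed by name (H2-Aa, H2-Ab1, H2-Eb1, Cd74, Ciita, H2-K1, H2-D1, B2m, Tap1 and Tapbp), 9 were measured among 19505 named genes, and Cd74 was not analysed here. Each of the 9 genes had 1 probe set on the array, and none was removed by a filter. Total RNA came from hearts of 3 CKD mice and 3 sham mice of the Balb/c strain, with 1 Affymetrix Clariom S array per mouse. CKD mice had part of the right renal cortex electrocoagulated and the left kidney removed afterwards (the 5/6 nephrectomy model of chronic kidney disease), and sham mice had a laparotomy that left the kidneys alone. The methods describe Balb/c mice as male and operated on at 8 weeks of age, and name several sets of operated mice without saying which set gave the array hearts. The comparison asks whether the genes that display peptides to T cells were expressed differently in the heart after loss of kidney function. A value is a log2 expression level as the authors deposited it, so a difference of 1 is a 2-fold difference.

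MHC class I molecules display peptides from the cytosol on nearly all nucleated cells, and MHC class II molecules display peptides from the endosome on dendritic cells, macrophages and B cells. A class I molecule is a heavy chain (H2-K1 and H2-D1 encode classical ones) bound to beta-2 microglobulin, the product of B2m. Its peptide is pumped into the endoplasmic reticulum by the TAP transporter, of which Tap1 encodes a subunit, and loaded with the help of tapasin, the product of Tapbp. H2-Aa encodes an alpha chain of class II, H2-Ab1 and H2-Eb1 encode beta chains, and Ciita encodes the transactivator that turns class II genes on. Interferon gamma raises both classes, and in the heart, resident macrophages and vessel cells carry MHC molecules. In RNA from whole tissue, fewer cells of a type and less RNA per cell cannot be told apart.

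In the reference annotation (GRCm38.p6), 7 of the 9 genes lie on chromosome 17, from Tapbp (chr17:33919478-33929290) through H2-K1 (chr17:33996012-34000619), Tap1 (chr17:34187556-34197225), H2-Ab1 (chr17:34263227-34269418), H2-Aa (chr17:34282744-34287823) and H2-Eb1 (chr17:34305867-34316674) to H2-D1 (chr17:35263094-35267497). B2m lies on chromosome 2 (chr2:122147687-122153082) and Ciita on chromosome 16 (chr16:10480014-10531064). The reference comes from C57BL/6J mice, which carry another MHC haplotype than Balb/c, so probes and sequences can differ from those of the mice studied. That difference applies to both groups alike.

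RefSeq promoters were given for 7 of the 9 genes (all but H2-Ab1 and Ciita), and the stretches below are shown because class I and class II genes share an arrangement of short motifs there. Capitals mark every match to CCAAT or its reverse complement ATTGG (bound by NF-Y), TGACG or its reverse complement CGTCA (the core of the X2 box), GGGGA and TCCCC with starts 6 bases apart (the NF-kB site of the class I enhancer has this form) and GAAA repeated with starts 6 bases apart (as in interferon response elements), each searched on both strands over the 250 bases before the start.
H2-K1: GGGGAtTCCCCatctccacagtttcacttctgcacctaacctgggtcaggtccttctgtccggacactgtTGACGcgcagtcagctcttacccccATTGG
H2-D1: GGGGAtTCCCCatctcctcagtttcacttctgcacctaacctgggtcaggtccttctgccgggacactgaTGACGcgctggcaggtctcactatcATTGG
B2m: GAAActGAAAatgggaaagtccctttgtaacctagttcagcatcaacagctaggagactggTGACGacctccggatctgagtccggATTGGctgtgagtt
H2-Aa: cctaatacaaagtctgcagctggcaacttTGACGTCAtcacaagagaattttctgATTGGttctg
H2-Eb1: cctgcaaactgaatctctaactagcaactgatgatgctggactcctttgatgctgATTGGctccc
The stretches are chr17:34000359-34000458 (minus strand) for H2-K1, chr17:35262923-35263022 (plus strand) for H2-D1, chr2:122147548-122147647 (plus strand) for B2m, chr17:34287862-34287926 (minus strand) for H2-Aa and chr17:34305753-34305817 (plus strand) for H2-Eb1. TGACG followed by ATTGG was sought with starts 25 or 26 bases apart on the strand of the gene. It was present for 4 of the 7 genes (H2-K1, H2-D1, B2m and H2-Aa), and in 0.0822% of all 32851 promoters. The 7 counts genes, and H2-K1 had a further listed start, also with this pair, that is not shown. H2-Eb1 held ATTGG at the matching place without TGACG before it. The H2-K1 and H2-D1 stretches had the same base at 89 of 100 places, and both opened with the pair of GGGGA and TCCCC, which 0.0457% of promoters held. The repeated GAAA was found in B2m alone of the 7, against 2.98% of all promoters, CCAAT in all 7 against 33.8%, and TGACG in 5 against 17.8%. Other spellings of interferon response elements were not searched, so promoters without the repeated GAAA, as of H2-K1 and H2-D1, can still hold such an element. In H2-Aa, TGACG and its reverse complement overlap. The distances between words were set after the promoters had been seen, and a match is a description of the letters and not of a bound site.

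None of the 9 genes passed the criterion of the methods (an unadjusted p under 0.05 at a fold difference above 1.5) in either direction, which 3.19% of all genes passed as lower in CKD, 3.13% as higher and 6.32% either way. None had an adjusted p under 0.05 over all genes from limma (0.0103% of all genes did), and none had an unadjusted p under 0.05 (9.14% of all genes did). The log2 fold change was below 0 for 8 of the 9 genes, against 50.2% of all genes, with a median of −0.46 over the 9. The 3 CKD hearts lay far apart for 7 of the 9 genes, with a range over 1 log2 unit (13.7% of all genes had one), but not for Ciita and Tapbp. The order of the CKD hearts, with replicate 1 at the top and replicate 2 at the bottom, was the same for all 9 genes.

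The class II alpha chain H2-Aa had log2 levels of 12.99, 9.15 and 10.60 in CKD replicates 1 to 3, against 11.44, 12.39 and 12.85 in sham replicates 1 to 3. Replicate 1 was the brightest of all 6 hearts and the other CKD hearts were the dimmest, so the groups overlapped. The mean was 10.91 ± 1.94 in CKD hearts and 12.23 ± 0.72 in sham hearts (SD, n = 3 mice each), a log2 fold change of −1.31 (95% confidence interval −3.15 to 0.52, adjusted p = 0.686 from limma). The beta chain H2-Ab1 had levels of 11.89, 7.64 and 9.42 in CKD hearts, against 9.46, 10.29 and 10.14 in sham hearts. All 3 sham values lay between the CKD values, and the fold change was −0.31 on the log2 scale (interval −2.24 to 1.61, adjusted p = 0.946 from limma). The second beta chain, H2-Eb1, had levels of 8.43, 4.86 and 7.44 in CKD hearts, against 6.96, 6.30 and 5.82 in sham hearts. It was the 1 gene of the 9 with a mean that was higher in CKD, by 0.55 on the log2 scale, and its interval of −1.17 to 2.27 spanned 0 (adjusted p = 0.882 from limma).

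Ciita, the transactivator gene, had levels of 4.02, 3.60 and 3.92 in CKD hearts, against 4.07, 3.81 and 3.69 in sham hearts. These 6 values lay within 1 unit of each other and below the mean level of the middle gene on the array, 4.94, and no detection calls were given that would show whether they stood above background. The log2 fold change of Ciita was −0.01 (interval −0.47 to 0.45). Its range among CKD hearts was 0.42, whereas that of the class II chains was between 3.57 and 4.25.

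**Figure D1:**
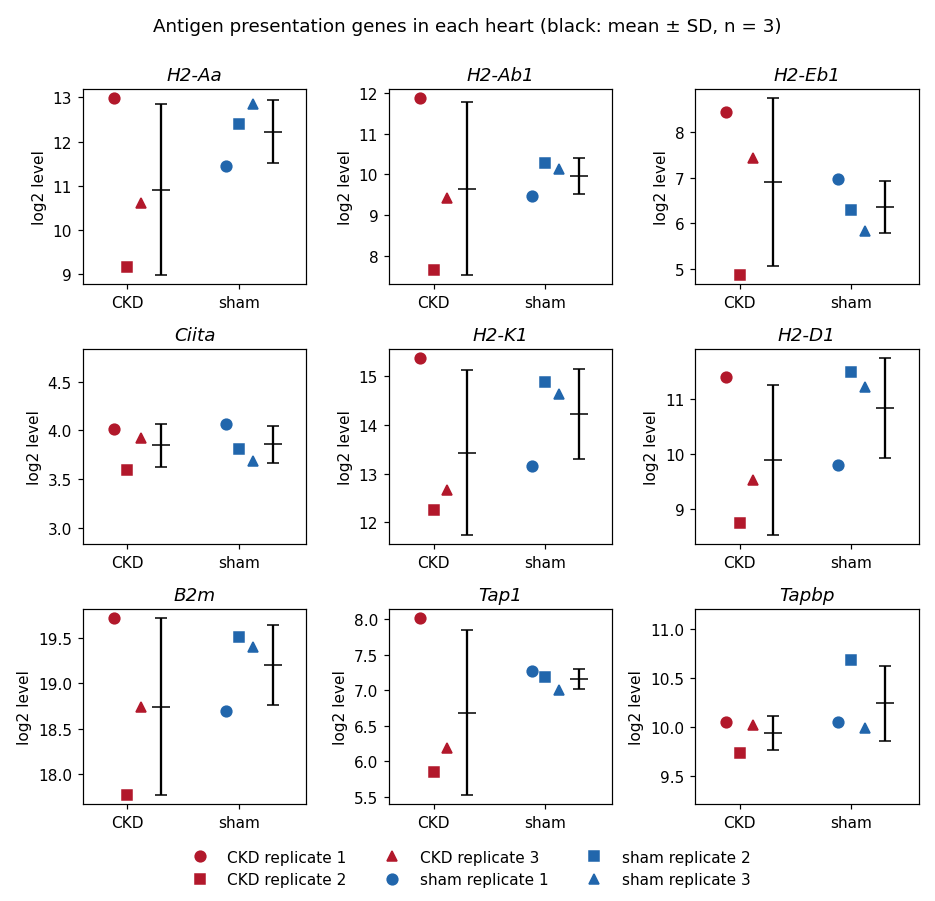
Log2 expression level of each antigen presentation gene (vertical axis, own scale per panel, at least 2 units) in 3 CKD hearts (red, left) and 3 sham hearts (blue, right), with the symbol giving the replicate number and black bars the mean ± SD. CKD replicate 1 is the highest and CKD replicate 2 the lowest CKD heart in all 9 panels, and the groups overlap in each.

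Among class I genes, the heavy chain H2-K1 had levels of 15.38, 12.26 and 12.66 in CKD hearts, against 13.16, 14.88 and 14.64 in sham hearts. The heavy chain H2-D1 had levels of 11.40, 8.75 and 9.53 in CKD hearts, against 9.80, 11.49 and 11.23 in sham hearts. In both genes CKD replicate 1 lay with sham replicates 2 and 3, and sham replicate 1 lay nearer the other CKD hearts. The log2 fold change was −0.79 for H2-K1 (interval −2.52 to 0.93, adjusted p = 0.818 from limma) and −0.95 for H2-D1 (interval −2.42 to 0.52, adjusted p = 0.726). H2-K1 and H2-D1 are close paralogs, and how far their probes tell them, or other heavy chains of Balb/c, apart was not tested. B2m had levels of 19.72, 17.77 and 18.74 in CKD hearts, against 18.70, 19.51 and 19.40 in sham hearts. It was brighter than 99.8% of genes and close to the highest values of the table, where differences can be compressed. The log2 fold change of B2m was −0.46 (interval −1.46 to 0.54).

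Genes of peptide supply behaved unalike in their spread. Tap1 had levels of 8.02, 5.85 and 6.19 in CKD hearts, against 7.28, 7.19 and 7.01 in sham hearts. The sham hearts lay within 0.27 of each other while the CKD hearts spanned 2.17, and the log2 fold change was −0.47 (interval −1.56 to 0.62, adjusted p = 0.829 from limma). Tapbp had levels of 10.05, 9.73 and 10.02 in CKD hearts, against 10.05, 10.68 and 9.99 in sham hearts. It had the narrowest range of the 9 genes among CKD hearts, 0.32, and a log2 fold change of −0.31 (interval −0.84 to 0.22, adjusted p = 0.760). With 3 hearts against 3, a two-sided exact permutation test cannot go below p = 0.1, and over the 9 genes it gave between 0.3 (H2-D1) and 1.0 (Ciita). No gene of the 9 had groups that did not overlap, against 13.6% of all genes.

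The range among CKD hearts exceeded 2 log2 units for 6 of the 9 genes, against 1.46% of all genes, and among sham hearts for 0 of the 9, against 0.61%. The 9 genes were brighter than most, with a median level of 10.09 against 4.94 over all genes, and 8 of them lay above the middle gene. Their spread was not compared with that of genes of like brightness. The highest CKD heart had 19.0 times the level of the lowest for H2-Ab1, against 1.78 times among sham hearts. That ratio was 14.3 among CKD and 2.66 among sham hearts for H2-Aa, 11.9 and 2.20 for H2-Eb1, 8.69 and 3.29 for H2-K1, and 4.50 and 1.21 for Tap1. Of all 19505 genes, 23 had a larger CKD range than H2-Ab1, 36 than H2-Aa and 47 than H2-Eb1. The SD was larger among CKD than among sham hearts for 8 of the 9 genes (all but Tapbp), against 59.9% of all genes, and its median over the 9 was 1.36 in CKD and 0.44 in sham hearts, against medians of 0.27 and 0.22 over all genes. CKD replicate 1 was the highest and CKD replicate 2 the lowest CKD heart for 9 of 9 genes, an order that 19.1% of all genes had. CKD replicate 2 was also the lowest of all 6 hearts for each of the 9, against 17.9% of all genes. The members of a pathway are not independent of each other, and these patterns were noticed in the data, so the percentages stand as descriptions.

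**Figure D2:**
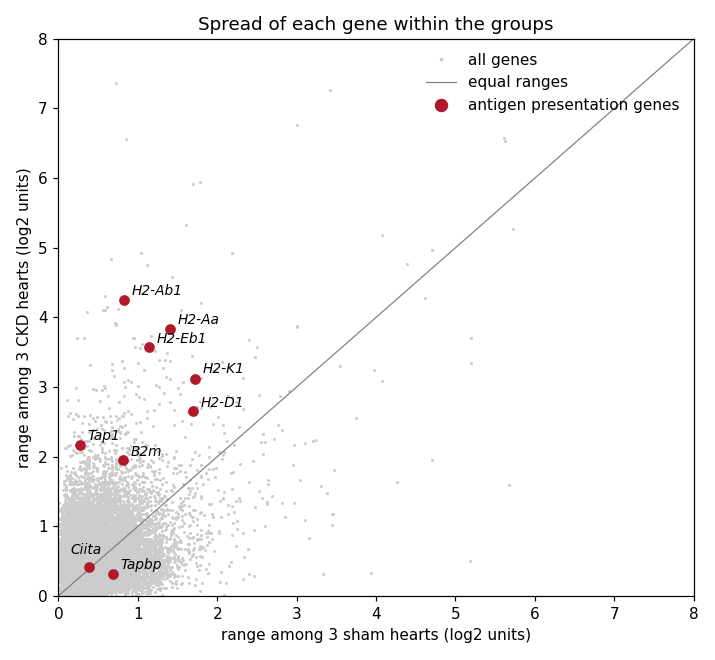
Range (highest minus lowest log2 level) of each gene among 3 CKD hearts (vertical axis) against its range among 3 sham hearts (horizontal axis), with 19505 genes in grey, the antigen presentation genes in red and the line of equal ranges. H2-Ab1, H2-Aa and H2-Eb1 lie highest of the red points, at CKD ranges of 4.25, 3.84 and 3.57, whereas Ciita and Tapbp lie among most genes.

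The calls changed with the CKD heart left out. Without CKD replicate 1, 6 of the 9 genes passed the criterion as lower in CKD, against 4.85% of all genes in that fit. H2-Aa then had a log2 fold change of −2.35 (interval −3.49 to −1.21, adjusted p = 0.0995 from limma), H2-K1 of −1.77, H2-D1 of −1.70, H2-Ab1 of −1.43, Tap1 of −1.14 (adjusted p = 0.0717) and B2m of −0.95. None of the 9 reached an adjusted p under 0.05 in that fit, in which 88 of all genes did. Without CKD replicate 2, no gene of the 9 was called lower, against 3.60% of all genes, and H2-Eb1 was called higher (1.58, interval 0.66 to 2.49, adjusted p = 0.413 from limma), against 3.73%. H2-Ab1 and B2m then turned to 0.69 and 0.03, neither past the criterion. With array weights, by which limma gives less weight to arrays that deviate more, H2-Aa (−1.79), H2-K1 (−1.50) and H2-D1 (−1.48) were called lower, against 5.27% of all genes. CKD replicate 1 had the lowest of these weights, 0.474, and sham replicate 2 the highest, 1.89.

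**Figure D3:**
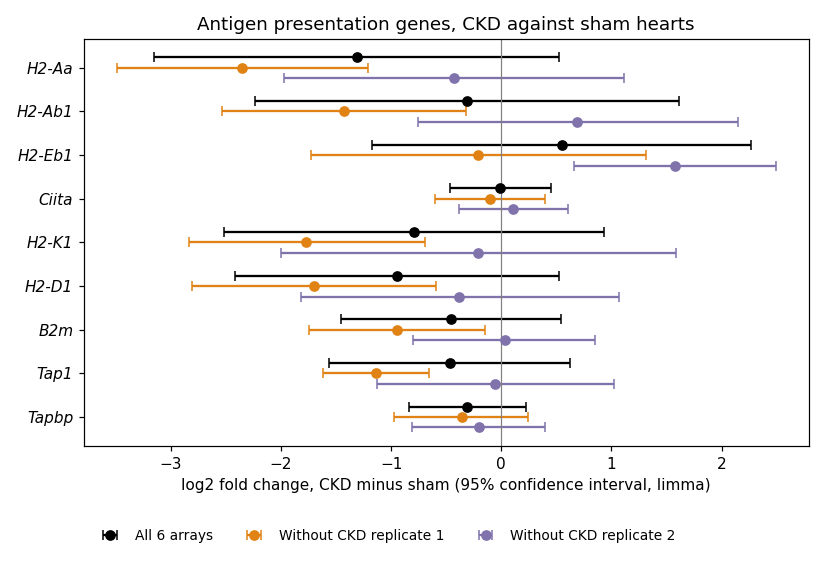
Log2 fold change of CKD over sham hearts with its 95% confidence interval from limma (horizontal axis) for each gene, with all 6 arrays (black), without CKD replicate 1 (orange) and without CKD replicate 2 (purple). All black intervals span 0, 6 orange intervals lie below 0 and the purple interval of H2-Eb1 lies above 0.

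Within each heart, the class II chains did not keep a fixed distance from each other. H2-Aa exceeded H2-Ab1 by 1.10, 1.51 and 1.18 log2 units in CKD hearts, against 1.98, 2.10 and 2.71 in sham hearts. This difference was smaller in every CKD heart than in every sham heart, on average by 1.00, which gave the smallest p that an exact two-sided permutation test of these groups allows (p = 0.1, adjusted p = 0.4 over 4 pairs). H2-Aa exceeded H2-Eb1 by 4.56, 4.29 and 3.16 in CKD hearts, against 4.48, 6.09 and 7.03 in sham hearts (exact permutation p = 0.2). The difference between H2-K1 and H2-D1 was 3.98, 3.51 and 3.13 in CKD hearts, against 3.36, 3.39 and 3.41 in sham hearts (exact permutation p = 0.7). The absolute size of such a difference depends on the probes and says nothing of the relative amount of the 2 transcripts, and the pairs were chosen after their values were seen.

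Around the 9 genes, the wider pathway had a few genes past the criterion. Of 13 measured class I heavy chains, including H2-K1 and H2-D1, 2 were higher in CKD, beside 3.13% of all genes, 0 were lower and 11 did not pass. Both higher genes are nonclassical. H2-T23, the heavy chain of Qa-1 and a ligand of inhibitory receptors on natural killer cells, had levels of 9.52, 7.17 and 9.19 in CKD hearts, against 7.54, 7.60 and 6.56 in sham hearts. H2-T22, a ligand of some gamma delta T cell receptors, had levels of 8.85, 6.97 and 8.44 in CKD hearts, against 6.92, 6.75 and 7.13 in sham hearts. CKD replicate 2 again was the lowest CKD heart and lay among the sham hearts in both. The log2 fold change was 1.39 for H2-T23 (interval 0.12 to 2.67, adjusted p = 0.497 from limma) and 1.15 for H2-T22 (interval 0.20 to 2.11, adjusted p = 0.462). Neither passed without CKD replicate 1 (0.95 for H2-T23 and 0.77 for H2-T22) or CKD replicate 3 (1.11 and 0.98), H2-T23 did not without sham replicate 3 (1.06), and H2-T22 did not without sham replicate 2 (1.06). With the methods' t-test neither passed, and H2-T23 did not with the trend and robust options of eBayes. H2-T10 is a close paralog of H2-T22, their probes were not checked for shared targets, and its log2 fold change was −0.02. Of the heavy chains that did not pass, H2-Q1 had the smallest p and fell just short of the fold limit, as lower in CKD. Its levels were 5.45, 5.38 and 5.09 in CKD hearts, against 5.50, 5.99 and 6.15 in sham hearts. The groups of H2-Q1 did not overlap, as for 13.6% of all genes, and its log2 fold change was −0.57 (interval −1.09 to −0.06, adjusted p = 0.489 from limma). The median over the 13 heavy chains was −0.05. Without CKD replicate 1, 0 were higher and 4 lower, H2-K1 and H2-D1 among them, beside 4.85% of all genes called lower.

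Of 9 genes of class I loading, with B2m, Tap1 and Tapbp counted again, Erap1 was lower in CKD, 0 were higher and 8 did not pass. Of all genes, 3.19% were lower. Erap1, the aminopeptidase that trims peptides in the endoplasmic reticulum to the length class I binds, had levels of 10.22, 10.28 and 9.87 in CKD hearts, against 10.79, 10.81 and 11.01 in sham hearts. Its groups did not overlap, the CKD hearts lay within 0.41 of each other, and the log2 fold change was −0.75 (interval −1.19 to −0.30, adjusted p = 0.344 from limma). It passed the criterion under each of the 16 alternatives in which it was fitted. Tap2, the partner of Tap1, stood at −0.24 and Calr, the chaperone calreticulin, at −0.69 (log2 fold changes, neither past the criterion). Over these 9 loading genes the median was −0.38. Without CKD replicate 1, 5 of them were lower, B2m and Tap1 included, beside 4.85% of all genes. None of 7 genes of the immunoproteasome and its activator passed, with values between −0.39 (Psmb8) and 0.13.

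Of 11 measured genes of class II loading and processing, 2 were lower, beside 3.19% of all genes, 0 were higher and 9 did not pass, with a median of 0.10. Ctss, cathepsin S, which degrades the invariant chain in the endosome, had levels of 10.71, 8.57 and 9.34 in CKD hearts, against 9.69, 11.58 and 11.50 in sham hearts, a log2 fold change of −1.38 (interval −2.76 to −0.01, adjusted p = 0.541 from limma). Its groups overlapped, and it did not pass without CKD replicate 2 (−0.90) or 3 (−1.28), or without sham replicate 2 (−1.06) or 3 (−1.10). It also failed with the methods' t-test, with the trend and robust options of eBayes and with genes dimmer than the middle one left out. Lgmn, the lysosomal asparaginyl endopeptidase legumain, had levels of 12.00, 12.12 and 12.55 in CKD hearts, against 12.39, 13.47 and 13.31 in sham hearts. Its log2 fold change was −0.83 (interval −1.52 to −0.15, adjusted p = 0.456), and it did not pass without CKD replicate 1 (−0.72) or 2 (−0.78), or without sham replicate 2 (−0.63) or 3 (−0.71), nor with the methods' t-test. H2-DMb1, a chain of the H2-DM molecule that exchanges peptides on class II, spread like the class II chains, with levels of 9.28, 5.13 and 7.0 in CKD hearts, against 7.01, 7.2 and 6.59 in sham hearts. H2-DMa, its partner chain, lay between 3.29 and 4.75 on all 6 arrays. None of 8 genes of class II transcription, among them Ciita, Rfx5 (0.35) and Nfya (0.16), passed the criterion.

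None of 7 measured genes of interferon gamma signalling and none of 6 costimulatory genes passed. Irf1, a transcription factor that interferon gamma induces, had levels of 8.92, 8.46 and 8.14 in CKD hearts, against 8.39, 8.65 and 8.76 in sham hearts. Its log2 fold change was −0.09 (interval −0.63 to 0.45). By qPCR and western blot, the paper reports more IRF1 in hearts of CKD mice fed a high phosphate diet than in sham or CKD hearts. Those are other assays, and the array groups are not named as fed that diet. Ifng lay between 3.21 and 4.25 on the 6 arrays, and Ifngr1, a chain of its receptor, had a log2 fold change of −0.77 (interval spanning 0, adjusted p = 0.624 from limma).

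**Figure D4:**
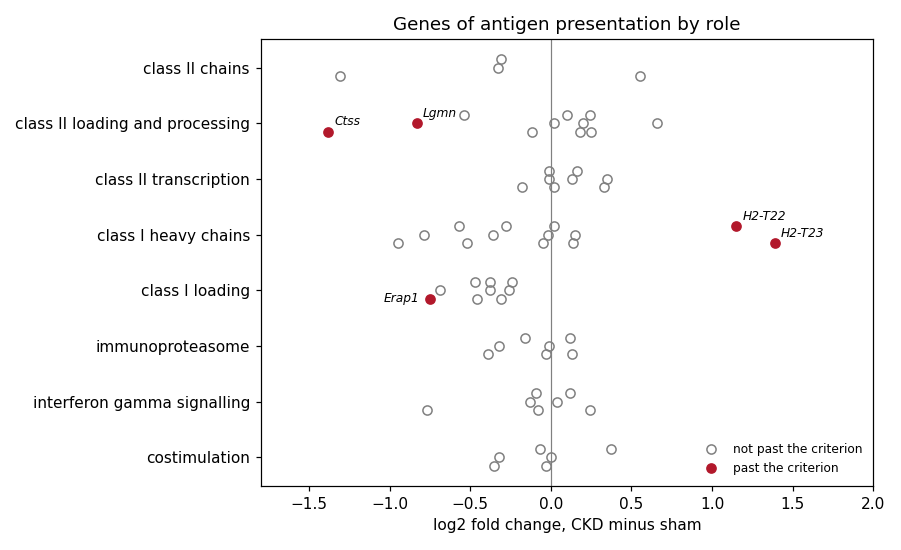
Log2 fold change of CKD over sham hearts (horizontal axis) for measured genes of antigen presentation, 1 row per role, with open grey points for genes not past the criterion and red points for those past it. Ctss, Lgmn and Erap1 lie below 0 and H2-T22 and H2-T23 above 0, and Rfx genes, shared with class I transcription, stand in the class II row.

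Marker genes of the cells that present antigen were read in the same hearts. Of 6 genes of leukocytes in general, none passed the criterion, and their mean log2 level was 8.16, 6.05 and 6.23 in CKD hearts, against 6.59, 7.67 and 7.38 in sham hearts. By this mean, CKD replicate 1 was highest and CKD replicate 2 lowest of all 6 hearts. Taken singly, 6 of the 9 antigen presentation genes had that order, but of the leukocyte genes only Cd52 did (9.12 and 4.67). Laptm5, Itgb2 and Cd53 were highest in sham replicate 2. Ptprc, the leukocyte antigen CD45, had levels of 9.75, 7.14 and 7.43 in CKD hearts, against 6.86, 7.77 and 7.61 in sham hearts. It was the only gene of this list with a log2 fold change above 0 (0.69), and the median of the list was −0.52. Of 14 macrophage markers, 3 were lower in CKD (Adgre1, C1qb and Cx3cr1), beside 3.19% of all genes. None was higher and 11 did not pass, with a median log2 fold change of −0.67. With the methods' t-test 1 of the 14 was lower, beside 318 of all 19505 genes, and with array weights 8 were, beside 1028. With 1 array left out, between 1 and 9 of the 14 were lower. The 1 was without CKD replicate 2 (beside 703 of all genes) or sham replicate 2 (beside 529), and the 9 without sham replicate 1 (beside 957). Of the 3, Cx3cr1 kept its call in each of the 15 alternatives in which it was fitted, Adgre1 lost it in 3 of 16 and C1qb in 7 of 16. The mean level of the 14 was 8.98, 7.80 and 8.44 in CKD hearts, against 8.19, 9.50 and 9.39 in sham hearts. Without CKD replicate 1, 5 of the 6 leukocyte genes and 7 of the 14 macrophage genes were lower, beside 6 of the 9 antigen presentation genes and 4.85% of all genes. Without CKD replicate 2 these counts were 0, 1 and 0, beside 3.60% of all genes. The part of leukocyte content in the levels of the antigen presentation genes was not tested.

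Dendritic cell markers differed in brightness, and those of B cells were dim. Of 11 dendritic cell markers, 2 were lower, beside 3.19% of all genes, 0 were higher and 9 did not pass. The mean level of the 11 was 4.30, 4.16 and 4.10 in CKD hearts, against 4.32, 4.30 and 4.37 in sham hearts. The lower genes were Cd83, which marks mature dendritic cells and B cells and keeps class II on the surface (−0.80, interval −1.34 to −0.27, adjusted p = 0.379 from limma), and Clec10a, a lectin also made by macrophages (−0.92, interval −1.68 to −0.16, adjusted p = 0.462). Both are among the brighter markers of the list, with levels of 5.70, 5.24 and 5.61 for Cd83 in CKD hearts, against 6.71, 6.03 and 6.22 in sham hearts, and of 7.30, 7.07 and 6.68 for Clec10a in CKD hearts, against 7.15, 8.42 and 8.23 in sham hearts. Clec10a did not pass without CKD replicate 3, sham replicate 2 or sham replicate 3, nor with the methods' t-test. Of the other dendritic cell markers listed, Flt3, Clec9a and Itgax lay between 2.60 and 3.43 on all 6 arrays. Zbtb46 lay between 3.01 and 3.70, Xcr1 between 3.37 and 4.59 and Batf3 between 3.55 and 4.30. The 7 B cell markers had means between 3.34 and 3.67. Of 9 markers of T and NK cells, none passed, and the mean was 4.89, 4.13 and 3.63 in CKD hearts, against 4.09, 4.26 and 4.24 in sham hearts. Neutrophil markers, of which 5 were measured and none passed, varied most of the leukocyte lists, with means of 8.97, 6.46 and 5.18 in CKD hearts, against 4.77, 8.42 and 8.29 in sham hearts. Sham replicate 1 was the lowest heart there, as it was the lowest sham heart for H2-Aa, H2-Ab1, H2-K1, H2-D1 and B2m. It was the highest sham heart for H2-Eb1, Ciita and Tap1. The 8 cardiac muscle markers, which check the labelled tissue, had means between 18.13 and 18.44. Endothelial markers had means between 10.88 and 11.61, with none of 8 past the criterion. Of 5 atrial muscle markers, 3 passed as higher in CKD (Myl4, Bmp10 and Sln), beside 3.13% of all genes, with means of 9.88, 10.27 and 14.15 in CKD hearts, against 10.62, 7.83 and 6.62 in sham hearts. None of the 5 passed with the methods' t-test or with the trend and robust options of eBayes. Without CKD replicate 3, 2 were higher and 1 lower, beside 559 and 546 of all genes. The highest heart there was CKD replicate 3, which lay between the other CKD hearts in all 9 antigen presentation genes, and the part of the dissected tissue in their levels was not tested.

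**Figure D5:**
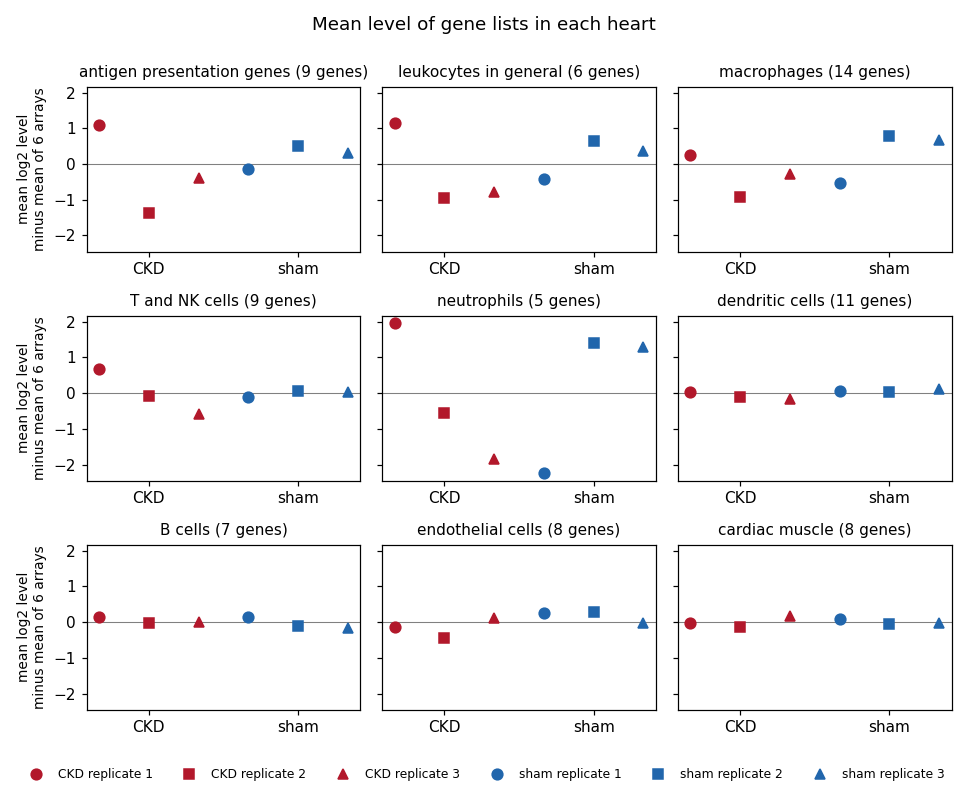
Mean log2 level of each gene list in each heart minus its mean over the 6 hearts (vertical axis, the same in all panels), with CKD hearts in red on the left, sham hearts in blue on the right, and the symbol giving the replicate number. CKD replicate 1 lies highest for antigen presentation genes, leukocyte genes, T and NK cells and neutrophils, with list means of 11.32, 8.16, 4.89 and 8.97. Cardiac muscle markers, some of them close to the highest values of the table, lie near 0 in every heart.

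The genes whose levels followed those of the 3 class II chains most closely over the 6 hearts, by the root mean square distance between centred log2 levels, were Plbd1 (distance 0.32), Ly86 (0.34), H2-DMb1 (0.37), Iigp1 (0.38) and Plac9b (0.38). Ly86 encodes a surface protein of B cells and macrophages, and Iigp1 an interferon-inducible GTPase. Ly86 had levels of 10.73, 7.66 and 8.94 in CKD hearts, against 8.60, 9.49 and 9.51 in sham hearts. For the 5 class I genes (H2-K1, H2-D1, B2m, Tap1 and Tapbp), the closest were Phf11b (0.10), Psmb8, the immunoproteasome subunit (0.14), Tmem159 (0.14), Slc9a3r2 (0.17) and Timd4, a receptor on resident macrophages (0.17). Psmb8 had levels of 8.40, 6.60 and 6.96 in CKD hearts, against 7.27, 8.06 and 7.79 in sham hearts. The class II chains on average stood at 1.77, −2.12 and −0.18 around their own mean in CKD hearts, against −0.05, 0.32 and 0.27 in sham hearts. The class I genes stood at 0.88, −1.16 and −0.61 in CKD hearts, against −0.24, 0.71 and 0.42 in sham hearts.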

How the data were processed

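The authors deposited log2 expression levels of 22206 probe sets, computed with RMA (a step named in the submitters' processing notes, with no version in the sources used), which corrects background and gives all arrays a common distribution. Arrays had median log2 levels between 4.83 and 4.86, and no detection calls or scanner files were used. Of these probe sets, 19572 were paired with 1 gene symbol by the platform annotation and 2634 were not named here. For 55 genes with several probe sets the brightest was kept. With limma 3.58.1 (lmFit, eBayes; R 4.3.3), CKD was set against sham over all 19505 genes, without covariates, and p was adjusted by Benjamini-Hochberg. The criterion (fold difference above 1.5, unadjusted p under 0.05) follows the methods. The fit was tested on simulated data. Each array is a separate mouse per the series design, and the number of arrays limits the precision. The members and lists were chosen with earlier results of these data known. All 9 members measured were named, with the list members past the criterion or of smallest p, and the 5 genes nearest to each mean profile. Other genes given in the text were chosen after their values were seen. Alternatives were the methods' t-test, eBayes trend and robust options, array weights, other normalizations, filters on dim genes, the mean of probe sets, a replicate block, each array left out and other limits. Promoters came from RefSeq (GRCm38.p6), and figures were drawn with matplotlib 3.10.9. A figure legend of the paper speaks of pairs of sham and CKD mice, but no source used says which arrays form a pair. The main fit took no pairs.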

Additional observations from a re-analysis of the deposited data

How the results depend on the processing

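Over the 9 genes and up to 16 other settings each, 127 of 143 results kept their direction and side of the criterion, 10 newly passed it and 6 changed sign without passing it. The signs that changed were those of H2-Ab1, H2-Eb1, B2m and Ciita. With 1 array left out, the log2 fold change of H2-Ab1 lay between −1.43 and 0.69, that of B2m between −0.95 and 0.03, that of H2-Eb1 between −0.21 and 1.58, and that of Ciita between −0.10 and 0.11, with the low ends without CKD replicate 1 and the high ends without CKD replicate 2. Ciita also turned to 0.10 without sham replicate 1 and to 0.05 with array weights. The count of antigen presentation genes lower in CKD, 0 with all arrays, was 3 with array weights and between 0 and 6 with 1 array left out, and the count of higher ones was between 0 and 1. Both counts were 0 under every other setting run. Over all genes, 623 were lower and 610 higher. These counts were 1028 and 1023 with array weights, 318 and 307 with the methods' t-test (which called 0 genes after Benjamini-Hochberg adjustment), 127 and 158 at a fold change over 2, and 0 and 2 at an adjusted p under 0.05. With 1 array left out they lay between 497 and 957 for lower genes and between 472 and 1091 for higher genes, the 957 being without sham replicate 1 and the 1091 without CKD replicate 1. With the replicate number as a block they were 599 and 602, with 0 antigen presentation genes in either direction, and Ctss and C1qb lost their calls and atrial markers called higher numbered 2 of 5. Same-numbered arrays correlated at −0.18, −0.03 and −0.19 in their deviations from the group means. So few arrays cannot show whether the hearts were paired, and the main fit did not take the numbers as pairs. The cause of these changes was not tested. Log2 levels near 20, as for B2m, and near 4, as for Ciita, limit what a difference can show.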
